A study of Mus musculus with 4 samples.

Results

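Interferon-stimulated genes are the genes that cells switch on when interferon reaches them, and 43 mouse genes of this kind were followed here through single cells of healing skin. The genes were chosen by a list of symbols spanning 8 roles, and each was read from the row of that symbol in every deposited matrix. The files held 42 of the 43, among 21739 genes in all, and all 42 were counted in every library. The remaining gene, *Mx1*, was not analysed here.

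The samples were periwound skin of C57/BL6j mice aged 6 weeks with a punch wound on the back, taken on the seventh day after wounding. Mice of the Control group received phosphate-buffered saline under the skin around the wound, and mice of the hucMSC-Exo group received hucMSC-Exosomes in the same way, small vesicles released by cultured mesenchymal stem cells of human umbilical cord. Each group had 2 libraries from 2 mice, so that any test between the groups measured only the spread between these 4 libraries. The tissue was dissociated, red blood cells and dead cells were removed, and UMIs (unique molecular identifiers, each standing for 1 captured RNA molecule) were counted per gene and cell after droplet sequencing. Groups and replicate numbers are those of the sample titles. The file letters (c and t) pair Control 1 with hucMSC-Exo 1 and Control 2 with hucMSC-Exo 2 instead. The numbers of neutrophils divided the libraries by letter and not by title: 52 and 92 in the libraries with c, Control 1 and hucMSC-Exo 1, and 334 and 530 in those with t, Control 2 and hucMSC-Exo 2. Every direction between groups below rests on the titles and could change if the letters were right. Although 2 of the label fields give gut sections as the tissue, the protocol and the cell type entry give skin.

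Type I interferons act on nearly every cell through the receptor chains *Ifnar1* and *Ifnar2*, and the signal reaches the nucleus through a complex that holds *Stat2* and *Irf9* and binds the interferon-stimulated response element in the promoters of antiviral genes. Interferon gamma, made mainly by NK cells and T cells, acts through *Ifngr1* and *Ifngr2* and the gamma-activated site in promoters, and strongly induces *Irf1* and the guanylate-binding proteins. In skin, plasmacytoid dendritic cells are known to enter wounds early and to release type I interferon there.

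The promoters are shown because the members were listed as genes that answer to interferon. RefSeq gene starts of GRCm38.p6, the build that mm10 names, matched 34 of the 43 genes with 41 promoters, each of 300 bases from 250 before to 50 after the start. The core of the response element (GAAA, any 2 bases, GAAA, on either strand) was found in 25 of 41 member promoters (61.0%) and in 1131 of 32851 promoters of all genes (3.44%). The gamma-activated site (TTC, any 3 bases, GAA, which reads the same on both strands) was found in 9 member promoters (22.0%) and in 2726 of all promoters (8.30%). A match is a run of letters and not a measured binding site. For each role the window comes from the matched member with the most UMIs that had a core before the start. Members without such a core were passed over, so a window does not stand for its role. *Irf7* and *Oasl2* had no core, which was found in 1 of 4 transcription factor promoters and in 2 of 4 OAS promoters. The following 30-base windows, 1 for each role, are given 5′ to 3′ on the strand of the gene. The capitals mark the core, which reads TTTC, any 2 bases, TTTC where it lies on the opposite strand. 
Ifit1 (IFIT family), GRCm38.p6 chr19:34640794-34640823, plus strand: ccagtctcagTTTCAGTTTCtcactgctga
Oas3 (OAS family), GRCm38.p6 chr5:120777715-120777744, minus strand: gcagggaggaGAAAACGAAAgtgaagggag
Isg15 (ISG15 system), GRCm38.p6 chr4:156200871-156200900, minus strand: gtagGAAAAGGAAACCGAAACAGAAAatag
Bst2 (other antiviral effectors), GRCm38.p6 chr8:71537577-71537606, minus strand: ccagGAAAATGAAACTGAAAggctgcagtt
Ifi205 (nucleic acid sensors), GRCm38.p6 chr1:174031870-174031899, minus strand: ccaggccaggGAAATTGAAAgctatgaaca
Gbp7 (guanylate-binding proteins and immunity-related GTPases), GRCm38.p6 chr3:142530273-142530302, plus strand: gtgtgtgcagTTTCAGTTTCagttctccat
Stat2 (transcription factors), GRCm38.p6 chr10:128270266-128270295, plus strand: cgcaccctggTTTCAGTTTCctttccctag
Phf11b (others), GRCm38.p6 chr14:59341361-59341390, minus strand: cacatttagaGAAAAAGAAActagaaacta
In *Isg15* 3 cores overlapped and in *Bst2* 2, which gives the longer runs of capitals. In these windows the centres of the cores lay at positions from -45 (*Phf11b*) to -217 (*Stat2*) relative to the start. The search reached only 250 bases before the start, and the windows were taken only from cores before it. Other cores lay after the start, as in *Ifitm3* at 7 and 24 and in *Ifih1* at 37. Several members are neighbours: the 5 IFIT genes lie together on chr19 between 34550550 and 34662981, *Gbp2*, *Gbp3*, *Gbp5* and *Gbp7* on chr3 between 142496934 and 142638008, and *Cmpk2* and *Rsad2* on chr12 between 26442743 and 26479837.

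The files held 7178 cells, fewer than the study counted, and 6443 were kept (200 to 3000 genes and at most 10% mitochondrial UMIs). The libraries Control 1, Control 2, hucMSC-Exo 1 and, last, hucMSC-Exo 2 had 952, 2074, 1416 and 2001 kept cells with 4779405, 11243740, 6459007 and 9053510 UMIs, and this order of the libraries is used for every series of 4 values below. Any 2 libraries shared at most 2 cell barcodes. Marker gates that used no member assigned 5259 cells to 14 classes, of which 11 had at least 10 cells in every library and were fitted. *S100a8* was found in 98.9% of neutrophils, *C1qb* in 82.7% of macrophages and *Siglech* in 100% of plasmacytoid dendritic cells. *Cd3e* was found in at most 0.42% of the neutrophils, monocytes and macrophages. These genes were themselves part of the gates, and cells passing gates of different lineages were left out, so the values describe the gates and do not check them. *Plac8*, which the monocyte gate did not use, was found in 90.3% of monocytes. The osteoclast-like macrophages, named after *Ctsk* and related genes, also held *C1qb* in 85.3% of cells. The 42 genes held 13830, 23832, 7484 and 23878 UMIs of the kept cells, and *Ifitm3* (38.5%) and *Bst2* (11.3%) together made up 49.8% of these UMIs.

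Summed over all members, the interferon-stimulated genes took their largest shares of UMIs in myeloid and plasmacytoid dendritic cells. They took their smallest in gamma delta T cells and group 2 innate lymphoid cells. Their summed share of all UMIs, averaged over the 4 libraries, was 0.564% in monocytes, 0.499% in plasmacytoid dendritic cells, 0.424% in neutrophils, 0.351% in macrophages, 0.286% in dendritic cells and 0.251% in osteoclast-like macrophages. It was between 0.104% and 0.133% in CD8 or NKT-like cells, NK cells, mast cells, CD4 T cells and basophils. It was 0.0954% in dendritic epidermal T cells, the resident gamma delta T cells of mouse epidermis, 0.0422% in group 2 innate lymphoid cells and 0.0418% in IL-17 gamma delta T cells. Of the 13 pairs of neighbours in this order, neutrophils exceeded macrophages in 4 of 4 libraries, with a mean difference of 0.0733 percentage points ± 0.0329 (SD, n = 4), and dendritic epidermal T cells exceeded group 2 innate lymphoid cells in 4 of 4, by 0.0532 ± 0.0071. Osteoclast-like macrophages exceeded CD8 or NKT-like cells in 3 of 4, by 0.118 ± 0.112. The other neighbours kept their order in 1 to 3 of 4 libraries, with mean differences smaller than their SD. The order of the classes changed without *Ifitm3* and *Bst2*. The share was then 0.145%, 0.0316%, 0.046% and 0.0392% in dendritic cells. It was 0.115%, 0.0866%, 0.0421% and 0.0758% in plasmacytoid dendritic cells and 0.127%, 0.113%, 0.063% and 0.0989% in CD8 or NKT-like cells. Plasmacytoid dendritic cells then lay below CD8 or NKT-like cells in every library, and dendritic cells in all but Control 1. Neutrophils then lay above monocytes in every library. These sums cannot tell fewer cells with the RNA from less of it per cell.

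**Figure D1:**
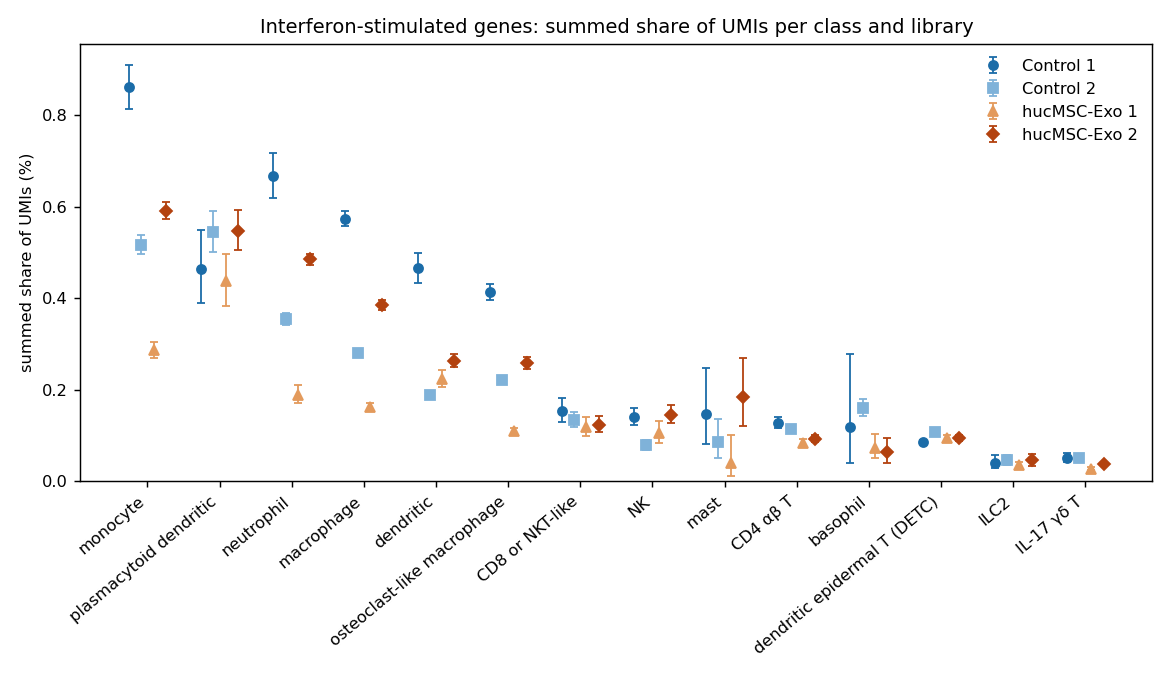
Summed share of UMIs (%) that the 42 interferon-stimulated genes took in each marker-gated class of cells, 1 point per library with its exact 95% interval for counting error. The neutrophil points run from 0.190% in hucMSC-Exo 1 to 0.667% in Control 1, while the points of dendritic epidermal T cells lie between 0.0861% and 0.107%.

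Of the 42 genes, 38 had enough UMIs in enough of the sums per library and class to be compared between classes. Each class was set against the mean of the other 10 by edgeR's quasi-likelihood test with the library as a block. This is a mean of log levels, which classes with almost no UMIs of a gene pull down. A fold change can thus exceed the ratio of plain means, and a higher call can lie below the plain mean. In neutrophils 25 of 38 were higher and 3 lower, against 30.7% and 27.8% of the 7644 genes tested. In monocytes 27 were higher and 0 lower, against 24.4% and 16.9% of all genes, and in macrophages 31 were higher and 0 lower, against 30.2% and 17%. In osteoclast-like macrophages 23 were higher and 2 lower, against 31% and 19.2%, but 11 were higher when the gates needed 1 more marker, and the 2 lower calls became 0 without Control 2 and 1 without either hucMSC-Exo library. In macrophages 2 were lower without Control 1. The median log2 fold change of the 38 was 1.79, 1.40, 1.63 and 1.01 in these 4 classes. A set of 14 genes was higher in all 4: *Ifit2*, *Ifit3*, *Oasl1*, *Oasl2*, *Oas2*, *Oas3*, *Rsad2*, *Cmpk2*, *Ifitm3*, *Slfn5*, *Ifih1*, *Ifi204*, *Irf7* and *Rtp4*. The 4 genes that did not pass this filter were *Ifi44*, *Ifit1bl1*, *Ifit3b* and *Oas1a*. The last 3 have near-identical relatives, so that reads of *Ifit1* and *Ifit3* are also uncertain to that extent. The total did not decide this, as *Oas1a* had 249 UMIs and the tested *Oas2* and *Usp18* had 224 each.

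In gamma delta T cells and innate lymphoid cells the calls ran the other way. Dendritic epidermal T cells had 2 members higher and 19 lower, against 31.4% and 21.3% of all genes, with a median log2 fold change of -1.59. IL-17 gamma delta T cells had 1 higher and 20 lower, against 22.6% and 15%, with a median of -1.67, and 12 lower without hucMSC-Exo 2. Group 2 innate lymphoid cells had 0 higher and 8 lower, against 14.9% and 8.12%, with a median of -1.41, and without Control 1 it had 1 higher and 5 lower. The other lymphoid classes and the dendritic cells were mixed. CD4 T cells had 7 higher and 7 lower, against 20.8% and 12.3%, CD8 or NKT-like cells had 4 and 1, against 12.7% and 8.71%, and NK cells had 4 and 4, against 13.9% and 10.9%. Dendritic cells had 5 higher and 9 lower, against 22.1% and 13.8%. These smaller counts moved with single libraries: dendritic cells had 3 higher without Control 1, 4 lower without Control 2 and 5 lower without hucMSC-Exo 2, CD4 T cells had 3 lower without hucMSC-Exo 2, CD8 or NKT-like cells had 0 lower without Control 1, Control 2 or hucMSC-Exo 2, and NK cells had 2 higher without hucMSC-Exo 2 and 2 lower without Control 2.

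**Figure D2:**
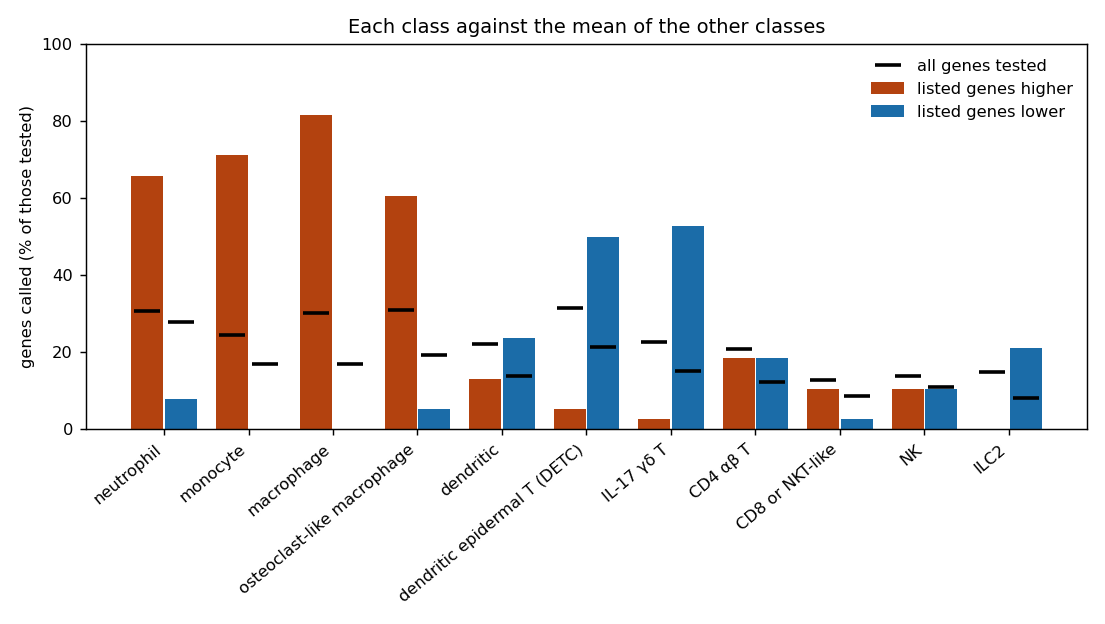
Share (%) of the 38 tested members called higher (orange bars) or lower (blue bars) in each of 11 classes than the mean log level of the other 10 (edgeR, adjusted p threshold 0.05). Black marks give the share of all 7644 genes tested. Macrophages had 31 higher and 0 lower, and IL-17 gamma delta T cells had 1 higher and 20 lower.

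The IFIT proteins bind viral RNA and block its translation. In neutrophils *Ifit1* was at 213, 78.3, 27.3 and 107 CPM (UMIs of the gene per 1000000 UMIs of the class), and *Ifit3* was at 92.5, 34.7, 10.9 and 79.9 CPM. *Ifit2* was at 0, 21.8, 10.9 and 20.8 CPM there and at 76.7, 21.6, 3.61 and 25.2 CPM in macrophages. Control 1 was highest and hucMSC-Exo 1 lowest for *Ifit1* and *Ifit3* in neutrophils, whereas *Ifit2* had no UMI in the neutrophils of Control 1, which is below 27.8 CPM by the 3 counts that a count of 0 allows. In monocytes the summed level of its 5 genes was 470.7, 2.14, 2.84 and 106 CPM, from 66, 1, 1 and 71 UMIs, so Control 2 and hucMSC-Exo 1 had almost none. All 3 tested genes were higher in neutrophils and in macrophages, and 2 of 3 in monocytes and in osteoclast-like macrophages. Of all genes 24.4% to 31% were called higher in these classes. Outside the myeloid classes *Ifit3* was higher in CD8 or NKT-like cells, at 66.4, 56.3, 0 and 48.2 CPM, and its log2 fold change was 3.10 (SE 0.637, edgeR adjusted p = 0.000215), although hucMSC-Exo 1 had none. Plasmacytoid dendritic cells had no UMI of any IFIT gene.

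The OAS family makes the second messenger that activates RNase L, or, for the OAS-like proteins, binds RNA sensors and nucleic acids. All 4 tested genes were higher in each of the 4 myeloid classes, 16 of 16 calls, against 24.4% to 31% of all genes. *Oasl2* was at 453, 150.2, 65.6 and 191 CPM in neutrophils and at 112, 45.0, 22.8 and 76.5 CPM in macrophages. *Oasl1* was at 129.6, 62.9, 54.6 and 55.1 CPM in neutrophils, and *Oas3* was at 139, 47.5, 27.3 and 69.5 CPM. In each of these series Control 1 was highest and hucMSC-Exo 1 lowest, and the libraries of one group overlapped those of the other except for *Oasl1*, where both hucMSC-Exo libraries lay below both Control libraries. *Oas2* was lower in level but among the strongest in contrast, at 46.3, 16.7, 16.4 and 27.2 CPM in neutrophils, and its log2 fold change was 4.83 (SE 0.406, edgeR adjusted p = 2e-12). In NK cells *Oas3* and *Oasl1* were higher (log2 fold changes 1.93 and 1.65) while *Oasl2* was lower (-2.93). *Oasl1* was called higher there although its mean of 19.6 CPM lay below the plain mean of the other classes, 22.3 CPM. *Oas3* had no UMI in group 2 innate lymphoid cells, which is at least 5.61-fold lower than the plain mean CPM of the other classes, counted against 3 UMIs over the class.

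*Isg15* is a ubiquitin-like modifier, *Herc6* the ligase that attaches it in mice and *Usp18* the protease that removes it and dampens type I receptor signalling. *Isg15* was at 722, 255, 191 and 173 CPM in neutrophils and at 229, 67.8, 19.2 and 66.9 CPM in macrophages. Both hucMSC-Exo libraries lay below both Control libraries in neutrophils and in macrophages, by little in the latter for hucMSC-Exo 2. *Herc6* was at 46.3, 14.1, 5.46 and 28.8 CPM in neutrophils, where it was higher than in other classes, and *Usp18* was at 30.2, 12.6, 4.81 and 19.1 CPM in macrophages. In CD4 T cells *Usp18* was at 0, 0.931, 0 and 0 CPM, 1 UMI in all, and its log2 fold change was -3.27 (SE 0.945, edgeR adjusted p = 0.0052). *Isg15* was detected in dendritic epidermal T cells too, at 41.3, 87.7, 98.8 and 34.5 CPM, and was called neither higher nor lower there.

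Among the other antiviral effectors, *Rsad2* (viperin), which makes a chain-terminating nucleotide from CTP, had the largest log2 fold change of the members in neutrophils and in macrophages. It was at 759, 268, 65.6 and 366 CPM in neutrophils, with a log2 fold change of 5.69 (SE 0.329, edgeR adjusted p = 5.57e-20). Its plain mean was 365 CPM there and 60.0 CPM in the other classes. It was at 307, 213, 39.7 and 149 CPM in macrophages, with a log2 fold change of 4.23 (SE 0.34, edgeR adjusted p = 8.18e-15). In monocytes it was at 956, 74.8, 0 and 76.4 CPM, and the Control 1 value came from 134 UMIs in 47.8% of 23 cells, while the 55 monocytes of hucMSC-Exo 1 had none. Control 1 was thus highest and hucMSC-Exo 1 lowest in each of these classes. In dendritic epidermal T cells, 1053 cells that give a measure of free RNA, *Rsad2* stayed at 1.45, 1.04, 0 and 0 CPM.

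*Ifitm3*, a membrane protein that keeps viruses from fusing, and *Bst2* (tetherin), which holds budding virions at the cell surface, followed other patterns. *Ifitm3* was at 3416, 3299.8, 2226 and 3775 CPM in monocytes, at 1555, 1341, 792 and 1911 CPM in neutrophils and at 2918, 1425, 1609 and 2081 CPM in dendritic cells. It was higher in all 4 myeloid classes and in dendritic cells (log2 fold change 3.10, SE 0.229, edgeR adjusted p = 3.22e-16) and lower in all 6 lymphoid classes. *Bst2* was at 3321, 4494, 3899.7 and 4365 CPM in plasmacytoid dendritic cells, of which it is a known surface marker in mice, and this 1 gene carried most of the summed share of these 42 cells. *Bst2* was also higher in dendritic epidermal T cells, at 382, 555, 404 and 438 CPM, and its log2 fold change was 1.61 (SE 0.151, edgeR adjusted p = 5.8e-13). It was lower in neutrophils, at 55.5, 41.1, 10.9 and 61.5 CPM, and its log2 fold change was -1.30 (SE 0.248, edgeR adjusted p = 1.32e-05). So the second most abundant member was lower in neutrophils and higher in epidermal T cells, the reverse of most members in these classes. Elsewhere *Bst2* was higher in monocytes, macrophages, osteoclast-like macrophages and dendritic cells. It was lower in IL-17 gamma delta T cells, CD4 T cells and group 2 innate lymphoid cells.

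The nucleic acid sensors comprise the RIG-I-like helicases (*Ddx58*, *Ifih1*, *Dhx58*), *Zbp1*, which senses Z-form nucleic acids, and the DNA-binding PYHIN proteins *Ifi204* and *Ifi205*. All 6 were higher in macrophages, 5 in monocytes and in osteoclast-like macrophages, and 3 in neutrophils. Of all genes 30.2% were called higher in macrophages, 24.4% in monocytes, 31% in osteoclast-like macrophages and 30.7% in neutrophils. The difference of these few sensors from all genes was not tested. *Ifi204* was at 456, 299, 150.5 and 268 CPM in monocytes (log2 fold change 4.53, SE 0.224, edgeR adjusted p = 7.31e-23), at 275, 188, 106 and 245 CPM in macrophages and at 296, 139.9, 49.2 and 224 CPM in neutrophils. It was at 0, 2.09, 3.25 and 0 CPM in dendritic epidermal T cells and had a log2 fold change of -4.25 there (SE 0.649, edgeR adjusted p = 2.46e-07). *Ifi205*, a close relative whose reads may be shared, had no UMI in NK cells, at least 4.23-fold lower than the plain mean CPM of the other classes. *Zbp1* was at 127, 51.6, 36.1 and 86.9 CPM in macrophages and *Ddx58* at 45.3, 23.4, 12.03 and 33.0 CPM, again with Control 1 highest and hucMSC-Exo 1 lowest.

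The guanylate-binding proteins and immunity-related GTPases attack the vacuoles of intracellular pathogens and are classic targets of interferon gamma. Of 32 calls possible in the 4 myeloid classes 10 were higher and 3 lower, a share near the 24.4% to 31% of all genes called higher there. The difference from the OAS family, with 16 of 16, was not tested. *Gbp2* was at 164, 47.4, 12.03 and 45.2 CPM in macrophages and at 221, 105, 0 and 34.5 CPM in monocytes, and *Gbp7* was at 112, 43.8, 20.4 and 47.8 CPM in macrophages. hucMSC-Exo 1 was lowest for *Gbp2* in both classes, and its monocytes had no UMI of it. In CD4 T cells 5 of the 8 genes were higher, against 20.8% of all genes: *Gbp3*, *Gbp4*, *Gbp5*, *Gbp7* and *Igtp*. *Igtp* was at 86.0, 94.99, 85.5 and 77.0 CPM there, even across the 4 libraries, with a log2 fold change of 2.37 (SE 0.215, edgeR adjusted p = 5.91e-13). *Gbp7* was at 137, 93.1, 74.2 and 46.8 CPM and *Gbp3* at 63.7, 43.8, 31.5 and 39.2 CPM in the same cells. *Gbp4* ran against the list. At 55.0, 57.5, 35.8 and 53.4 CPM it was higher in dendritic epidermal T cells (log2 fold change 1.82, SE 0.305, edgeR adjusted p = 1.6e-06), and it was higher in IL-17 gamma delta T cells too (log2 fold change 1.00), a call lost without Control 2, without hucMSC-Exo 1 or without hucMSC-Exo 2, each leaving 0 members higher there. In neutrophils it had 4 UMIs in all and was lower (log2 fold change -2.40, SE 0.841, edgeR adjusted p = 0.013). *Ifi47* was higher in no class, and was at 60.4, 20.4, 6.01 and 25.2 CPM in macrophages. In dendritic cells 5 of the 8 were lower, against 13.8% of all genes, among them *Irgm1* (log2 fold change -3.42) and *Igtp* (-2.99).

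Among the transcription factors, *Irf7*, which amplifies type I interferon production, was higher in all 4 myeloid classes. It was at 290.4, 139, 37.3 and 204 CPM in macrophages and at 129.6, 119, 38.3 and 137 CPM in neutrophils, with hucMSC-Exo 1 lowest in both. In plasmacytoid dendritic cells *Irf7* was at 339, 171, 54.9 and 123 CPM. Those libraries had only 4, 12, 10 and 16 such cells, and 54.9 CPM is 3 UMIs in hucMSC-Exo 1, so their order is uncertain. *Irf1* was at 249.9, 27.0, 21.9 and 47.1 CPM in neutrophils and at 193, 29.4, 27.7 and 47.8 CPM in macrophages, so that Control 1 stood above the other 3 libraries, which lay between 21.9 and 47.8 CPM. It was higher in no class, with 92.3, 37.3, 81.0 and 46.8 CPM in CD4 T cells. *Stat2*, which type I interferon signalling itself needs, was at 69.7, 24.0, 8.42 and 42.6 CPM in macrophages, again with Control 1 highest and hucMSC-Exo 1 lowest.

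The remaining members have varied roles. *Rtp4* binds RNA and chaperones receptors, *Parp14* is an ADP-ribosyltransferase, *Xaf1* promotes apoptosis, and the role of *Phf11b* is less settled. *Rtp4* was at 231, 184, 76.5 and 316 CPM in neutrophils, and its log2 fold change was 4.61 (SE 0.23, edgeR adjusted p = 3.22e-23), and here hucMSC-Exo 2 was highest. *Parp14* was at 213, 48.8, 5.46 and 72.7 CPM in neutrophils, and *Xaf1* was at 82.5, 26.4, 24.1 and 60.8 CPM in macrophages. *Phf11b* separated the neutrophils from the other myeloid cells, with 1 UMI in 1008 neutrophils (log2 fold change -4.38, SE 0.838, edgeR adjusted p = 1.41e-05) but higher calls in monocytes, macrophages, osteoclast-like macrophages, CD4 T cells, CD8 or NKT-like cells and NK cells.

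**Figure D3:**
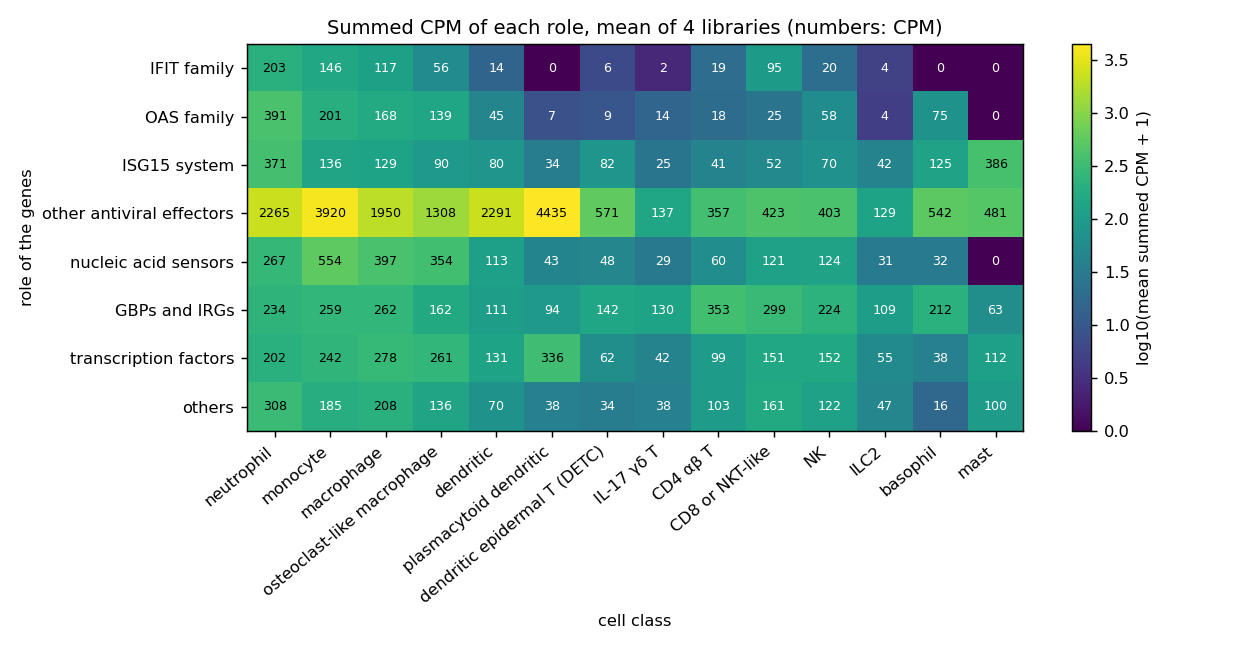
Mean summed CPM over the 4 libraries for each of the 8 roles (rows) in each class of cells (columns), with a log10 colour scale and the CPM printed in each field. The OAS row runs from 391 in neutrophils to 201 in monocytes, 168 in macrophages and 139 in osteoclast-like macrophages, and the GTPase value is largest in CD4 T cells at 353.

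By summed share the 4 libraries fell into the same order in neutrophils, monocytes and both macrophage classes, and this order cut across the groups. The summed share was 0.667%, 0.355%, 0.190% and 0.485% in neutrophils, 0.862%, 0.517%, 0.2865% and 0.592% in monocytes, 0.5745%, 0.281%, 0.163% and 0.386% in macrophages, and 0.413%, 0.222%, 0.109% and 0.259% in osteoclast-like macrophages. Control 1 was highest, followed by hucMSC-Exo 2, Control 2 and hucMSC-Exo 1, so each group held 1 of the 2 higher and 1 of the 2 lower libraries. The exact 95% intervals for counting error did not overlap between any 2 libraries in macrophages, where they were 0.559% to 0.591%, 0.273% to 0.289%, 0.1545% to 0.172% and 0.374% to 0.397%. Without *Ifitm3* and *Bst2* the order was the same in these 4 classes, with 0.506%, 0.217%, 0.109% and 0.288% in neutrophils. T cells did not show this order. The share was 0.0861%, 0.107%, 0.0936% and 0.0953% in dendritic epidermal T cells. It was 0.128%, 0.115%, 0.0844% and 0.0931% in CD4 T cells, 0.0503%, 0.0513%, 0.0275% and 0.0380% in IL-17 gamma delta T cells and 0.154%, 0.135%, 0.118% and 0.124% in CD8 or NKT-like cells, and in these 3 classes both hucMSC-Exo libraries lay below both Control libraries. Gene by gene in the myeloid classes, the highest and the lowest library were mostly the same, while the 2 between them were not counted. Among the members with at least 20 UMIs, Control 1 was highest for 41 of 42 in macrophages, 36 of 39 in osteoclast-like macrophages, 28 of 33 in monocytes and 25 of 34 in neutrophils. For the lowest level, hucMSC-Exo 1 held 38 of 42, 34 of 39, 30 of 33 and 31 of 34 in the same classes. The share of all genes for which these libraries were highest or lowest was not counted. These counts therefore cannot tell the members from genes in general.

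**Figure D4:**
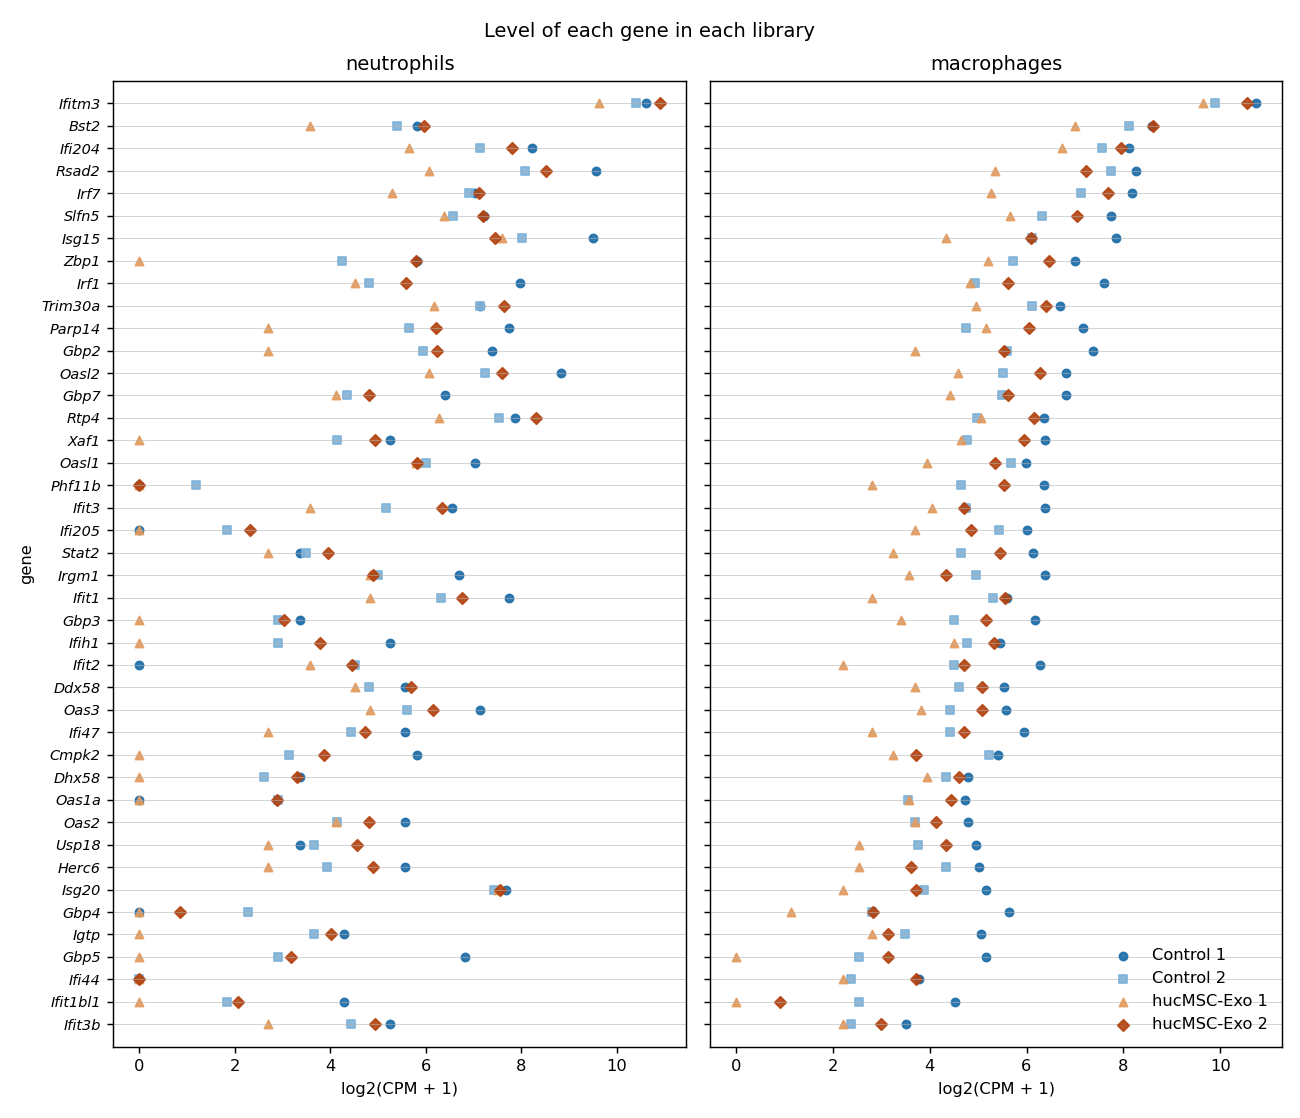
Level of each of the 42 genes in neutrophils and in macrophages (log2 of CPM plus 1, a log scale), 1 point per library, genes ordered by their mean CPM in macrophages. In macrophages the Control 1 points lie furthest right for 41 of 42 genes and the hucMSC-Exo 1 points furthest left for 38, with the other two libraries between them, so the groups overlap for most genes.

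Other measures moved with the libraries, and their part in this order was not tested. The summed level of the neutrophil markers in neutrophils was 58563, 114109, 127951 and 125391 CPM, lowest in the library with the highest interferon-stimulated share. Keratinocyte markers were at 2230, 1443, 1481 and 1434.5 CPM in neutrophils and at 673, 337, 439 and 388 CPM in macrophages, highest in Control 1 in both. Fibroblast markers were at 287, 593, 355 and 352 CPM in neutrophils, lowest in Control 1, and endothelial markers were at 0 to 16.4 CPM. The neutrophils of Control 1 numbered 52, against 334, 92 and 530, and their median depth was 2043 UMIs, against 2167, 1886 and 2126.

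Between hucMSC-Exo and Control no member passed the test in any class. edgeR tested 27 members in neutrophils, 28 in monocytes, 38 in macrophages, 27 in osteoclast-like macrophages, 8 in dendritic cells, 18 in dendritic epidermal T cells, 11 in IL-17 gamma delta T cells, 19 in CD4 T cells and all 42 over the kept cells of every class, and called 0, as it called 0% of all genes in each of these. In CD8 or NKT-like cells it called 0 of 6 members and 0.0534% of all genes, in NK cells 0 of 5 members and 0.0931%, and in group 2 innate lymphoid cells (0% of all genes) no member had enough UMIs. At an unadjusted p under 0.05, 9 members were lower and 0 higher in the hucMSC-Exo macrophages, 6 and 0 in monocytes, 6 and 0 in osteoclast-like macrophages, 1 and 0 in neutrophils, 4 and 0 in IL-17 gamma delta T cells, 2 and 0 in CD4 T cells and 5 and 0 over all kept cells. In dendritic epidermal T cells 1 was lower and 1 higher, in CD8 or NKT-like cells 2 and 1, and in dendritic cells and in NK cells 0 and 1. DESeq2 called 1 member in 1 class, *Ifitm3* in dendritic epidermal T cells.

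In the myeloid classes the estimates leaned to lower levels in the libraries titled hucMSC-Exo, without passing the test. The log2 fold change was negative for 37 of 38 members in macrophages (median -0.73), 26 of 28 in monocytes (median -0.79), 26 of 27 in osteoclast-like macrophages (median -0.98) and 15 of 27 in neutrophils (median -0.26), while the median of all genes lay between -0.03 and 0.02 in every class. The lean was not general: it was negative for 10 of 18 members in dendritic epidermal T cells (median -0.09) and positive for 4 of 5 in NK cells (median 0.58). It also rests on the titles, since by file letter both libraries with t lay between those with c in summed share in all 4 myeloid classes, as in neutrophils with 0.355% and 0.485% between 0.667% and 0.190%. Both hucMSC-Exo libraries lay below both Control libraries for 12 of 42 members in macrophages, 13 of 33 in monocytes, 13 of 39 in osteoclast-like macrophages and 3 of 34 in neutrophils. Of all genes with 20 UMIs this was so for 13.8%, 18.1%, 14.4% and 15.5%. No single member passed the correction. In macrophages *Cmpk2*, a mitochondrial nucleotide kinase gene next to *Rsad2* that was chosen after its values were seen, had a log2 fold change of -1.87 (SE 0.378, edgeR adjusted p = 0.999), with 41.8, 36.6, 8.42 and 12.2 CPM. In monocytes *Gbp2* had a log2 fold change of -2.87 and *Rsad2* -3.48 (-0.69 without Control 1), and in neutrophils that of *Isg15* was -1.18 (edgeR adjusted p = 0.999).

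The size of this lean, and whether members were called, moved with single libraries. Without Control 1 the median member log2 fold change in macrophages was -0.02, without hucMSC-Exo 1 it was -0.21, without Control 2 -1.38 and without hucMSC-Exo 2 -1.87. In neutrophils the same 4 values were 0.08, 0.21, -0.98 and -1.57, so that the direction turned when either Control 1 or hucMSC-Exo 1 was absent. Leaving out Control 2 led to 22 members called lower in macrophages, 4 in osteoclast-like macrophages, 2 in dendritic cells and 1 (*Gbp7*) in CD4 T cells, and leaving out hucMSC-Exo 2 led to 6 in monocytes and 6 in osteoclast-like macrophages. Without hucMSC-Exo 1 edgeR called 1 member lower, *Rsad2* in monocytes, and without Control 1 it called none lower in any class. In each of these fits the lone library of a group is assumed to vary like the other pair.

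*Ifitm3* had positive estimates in 3 lymphoid classes, without passing the test, and these moved with the choice of cells. In dendritic epidermal T cells it was at 36.9, 42.8, 159.5 and 93.4 CPM, and the log2 fold change of hucMSC-Exo over Control was 1.73 (edgeR adjusted p = 0.438). In NK cells it was at 42.0, 29.4, 188 and 178 CPM, a log2 fold change of 2.37 (edgeR adjusted p = 0.106), and in CD8 or NKT-like cells at 55.4, 25.6, 488 and 78.4 CPM, 2.81 (edgeR adjusted p = 0.71). Both hucMSC-Exo libraries lay above both Control libraries in all 3 classes, at levels below the 792 to 1911 CPM of neutrophils, and none of the 3 passed the correction. edgeR called it higher in dendritic epidermal T cells without hucMSC-Exo 1 and again without hucMSC-Exo 2, in NK cells without hucMSC-Exo 1, and in CD8 or NKT-like cells without Control 1 or without hucMSC-Exo 2. Without the cells of the top doublet scores *Ifitm3* was at 62.8, 29.1, 52.9 and 19.6 CPM in CD8 or NKT-like cells, where the groups then overlapped. In NK cells hucMSC-Exo 1 fell to 46.6 CPM, 3 UMIs in place of 14 with 1 cell fewer, while hucMSC-Exo 2 was at 187 CPM. In dendritic epidermal T cells it was then at 34.7, 35.2, 92.3 and 45.9 CPM, a log2 fold change of 1.06. With 1 more marker needed by the gates the log2 fold change was 0.97 in dendritic epidermal T cells and 0.89 in CD8 or NKT-like cells. In CD8 or NKT-like cells it was 1.07 without hucMSC-Exo 1. Genes of other cells were present too. The myeloid gene *Lyz2* was at 11.1, 10.2, 329 and 332 CPM in the CD8 or NKT-like cells, and at 12.6, 11.6, 0 and 13.1 CPM there without the top doublet scores. With 1 more marker per gate it was at 626, 9.92, 362 and 371 CPM in these cells. In NK cells *Lyz2* was at 6.00, 0, 13.4 and 12.7 CPM and the neutrophil transcripts *S100a8* and *S100a9* together at 24.0, 88.1, 80.5 and 38.1 CPM. In dendritic epidermal T cells *S100a8* and *S100a9* were at 15.9, 122, 90.1 and 91.2 CPM. By file letter the *Ifitm3* values of the 2 pairs of libraries overlapped in dendritic epidermal T cells, CD8 or NKT-like cells and NK cells.

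Within the myeloid classes a part of the cells held several member UMIs at equal depth. Each cell was thinned to 1000 UMIs so that depth was equal, and cells with at least 5 member UMIs were counted. In neutrophils 40.0%, 20.2%, 7.78% and 33.5% of cells reached this (unthinned 60.0%, 47.5%, 17.8% and 62.5%), in macrophages 45.5%, 17.0%, 10.7% and 36.2%, and in monocytes 56.5%, 47.7%, 18.2% and 55.3%. The unthinned shares in macrophages were 93.4%, 74.3%, 60.3% and 86.2%, and in monocytes 95.7%, 90.8%, 90.9% and 98.1%. In these 3 classes the libraries kept the order of the summed share at equal depth. In osteoclast-like macrophages the shares were 35.6%, 16.8%, 3.45% and 15.7% (unthinned 96.6%, 87.7%, 59.8% and 89.2%), with Control 2 above hucMSC-Exo 2. Cells too shallow to thin numbered 2, 8, 2 and 16 in neutrophils and 10, 17, 6 and 7 in macrophages, and 1.11% to 10.7% of neutrophils held 4 member UMIs, just under the limit. In dendritic epidermal T cells, which serve as a background, 0.599%, 0.901%, 1.52% and 1.29% of cells reached it, at a median depth of 3134 to 3827 UMIs before thinning against 1886 to 2167 in neutrophils. The tenth of neutrophils with the most member UMIs held between 40.7% and 49.9% of all member UMIs of their library. This share was 30.1% to 45.9% in monocytes and 33.8% to 37.1% in dendritic epidermal T cells. It was 52.4% to 58.3% in IL-17 gamma delta T cells, with a mean of only 0.271 to 0.457 member UMIs per cell. Sparse counts thus also give a high share, and it was not particular to myeloid cells.

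The other members were found more often in cells that also held *Rsad2*. At 1000 UMIs, neutrophils with a UMI of *Rsad2* held 12.7, 11.5 and 11.9 UMIs of the other members in Control 1, Control 2 and hucMSC-Exo 2, and neutrophils without it held 3.75, 2.43 and 3.49, ratios of 3.39, 4.72 and 3.40. In hucMSC-Exo 1 too few neutrophils held *Rsad2* for this. In macrophages the same 3 libraries held 11.2, 7.500 and 6.615 UMIs beside *Rsad2* and 5.10, 2.23 and 3.77 without it. Over the libraries, 140 neutrophils with *Rsad2* and 840 without it held *Isg15* in 40.0% against 10.7%, *Oasl2* in 42.1% against 9.88%, *Ifit1* in 27.1% against 2.38% and *Rtp4* in 45.7% against 13.1% of cells. For 56 macrophages with *Rsad2* and 611 without it, the shares were 37.5% against 13.7% for *Irf7*, 25.0% against 4.91% for *Isg15* and 23.2% against 4.42% for *Gbp7*. In both classes 39 of the 41 other members were found more often beside *Rsad2*. The share of all genes found more often beside *Rsad2* was not counted. Cells were pooled over the libraries here, and *Rsad2* was in 17.4% of macrophages in Control 1 and 3.05% in hucMSC-Exo 1. The pooled shares and counts thus also carry the difference between libraries. The counts are sparse and the cells of a library share its preparation, so these shares are a description.

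**Figure D5:**
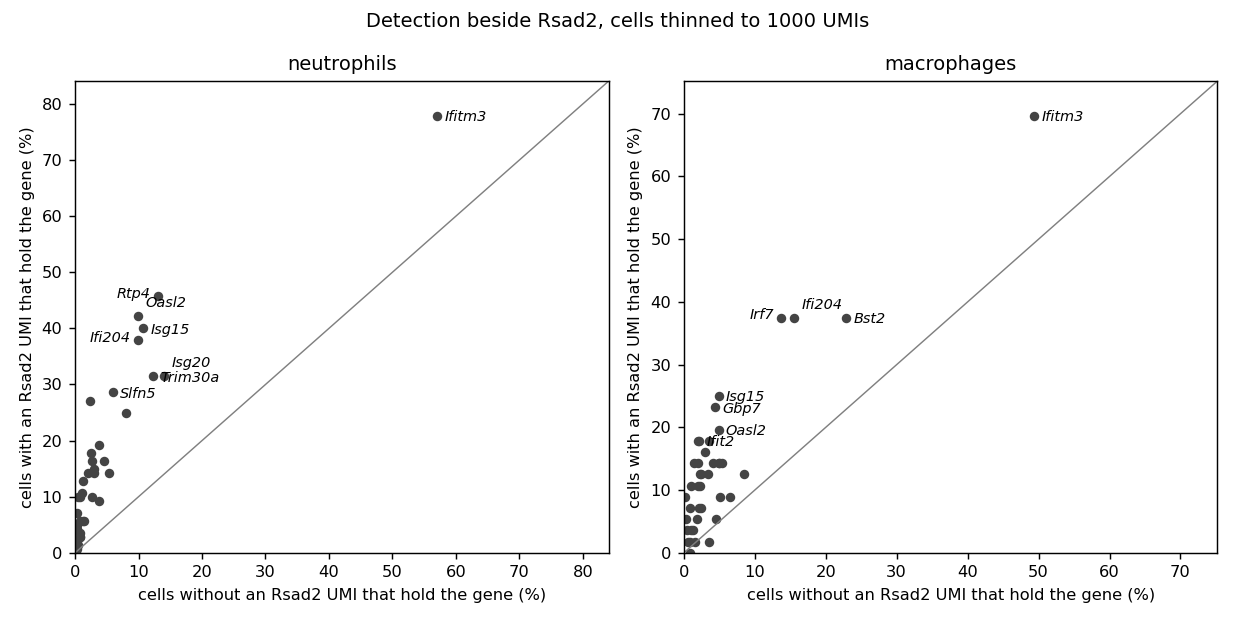
Share of cells (%) in which each other member was found, for cells with (vertical axis) and without (horizontal axis) a UMI of *Rsad2*, in neutrophils and in macrophages thinned to 1000 UMIs; the line marks equal shares. Nearly all points lie above the line, 39 of 41 in each panel. Cells were pooled over the libraries, and the share of all genes above the line was not counted.

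The wider interferon pathway was read from 80 further genes, of which 67 were in the files and 57 were tested between classes. Of the ligands, 8 type I and type III genes (*Ifnb1*, *Ifna1*, *Ifna2*, *Ifna4*, *Ifna5*, *Ifne*, *Ifnl2* and *Ifnl3*) were not analysed here, and *Ifnk* had no UMI in the kept cells. *Ifng* was at 282, 147, 121 and 337 CPM in NK cells, 99.7, 56.3, 213 and 145 CPM in CD8 or NKT-like cells and 156, 19.6, 42.7 and 10.6 CPM in CD4 T cells, and it was called higher in these 3 classes. *Gbp7* was called higher in the same 3 classes and in macrophages. Of the receptor genes, *Ifnar2* was higher in all 4 myeloid classes and in dendritic cells and lower in all 6 lymphoid classes, and *Ifngr1* was higher in CD4 T cells, CD8 or NKT-like cells and NK cells. Of the 36 other induced genes, 26 were higher and 2 lower in macrophages, 21 and 1 in monocytes, 16 and 5 in osteoclast-like macrophages, 14 and 10 in neutrophils, and 2 and 21 in dendritic epidermal T cells. Of all genes 30.2% and 17% were called so in macrophages, 24.4% and 16.9% in monocytes, 31% and 19.2% in osteoclast-like macrophages, 30.7% and 27.8% in neutrophils and 31.4% and 21.3% in dendritic epidermal T cells, so the neutrophil counts of these genes were close to the background. *Cxcl9*, a chemokine gene that interferon gamma induces, was at 1122, 9.60, 6.01 and 103 CPM in macrophages, more than 10 times higher in Control 1 than in any other library. *Cxcl10*, another chemokine gene, was at 310.2, 104, 10.8 and 78.2 CPM in macrophages, so Control 1 was highest and hucMSC-Exo 1 lowest for both chemokine genes. Between hucMSC-Exo and Control edgeR called no pathway gene in any class, and between 0 and 5 had an unadjusted p under 0.05 in each. DESeq2 called 1, *Cxcl10* in dendritic epidermal T cells, which was at 5.07, 6.27, 84.6 and 44.5 CPM there, with both hucMSC-Exo libraries above both Control libraries. Its log2 fold change was 3.57 (edgeR adjusted p = 0.0818), 3.68 without the top doublet scores and 0.89 with 1 more marker needed by the gates. edgeR called it with RLE size factors, and without hucMSC-Exo 1 or hucMSC-Exo 2.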

How the data were processed

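The deposited matrices hold whole-number counts of UMIs per gene and cell, which the authors made with Cell Ranger 6.1.2 on mm10 from droplet libraries of dissociated periwound skin, with no normalization and each library in a file of its own. Cells were kept at 200 to 3000 genes and a mitochondrial share up to 10%. The deposited cells are a subset of those the study counted. Cells were gated by a minimum number of detected markers per class; 1184 cells that passed no gate, or gates of different lineages, stayed unassigned, and mixed droplets can remain in the classes. The 10% of cells with the highest Scrublet score (scanpy 1.11.5) were left out as an alternative. Another alternative raised each gate but the general T cell gate by 1 marker, which also leaves fewer cells out for passing gates of different lineages. The 43 genes, their roles, the further pathway genes and the gates were chosen with earlier results of these data known. UMIs were summed per library and class and compared with edgeR 4.0.16 (quasi-likelihood test, TMM, filterByExpr, Benjamini-Hochberg over all genes at 0.05), between the groups without a block, and between classes with the library as a block. DESeq2 1.42.0, another normalization, no filter, other cell filters, a replicate block and each library left out were alternatives. Cells of 1 library are not replicates, and p-values measure only the spread between these libraries. CPM is UMIs per 1000000 UMIs of the class; gene lengths play no part, because the 3′ ends are counted. Exact Clopper-Pearson 95% intervals and the 3 counts allowed by a count of 0 cover counting error only. Values per library were given for the 3 members of each role with the most UMIs, in 1 or more classes. Of the 3 members with the largest higher and lower calls in each class, only a part is given. The tests were checked on simulated counts. Promoter windows were searched in RefSeq sequences of GRCm38.p6.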

Additional observations from a re-analysis of the deposited data

How the results depend on the processing

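Between the groups no member was called by edgeR, with other size factors (RLE), with cells over 3000 genes kept, without the top Scrublet scores or with 1 more marker per gate. With no filter beyond 1 UMI, 3 members were called lower in hucMSC-Exo monocytes, 7 in macrophages, 3 in osteoclast-like macrophages and 1 in dendritic cells, and *Ifitm3* was called higher in 3 classes, 1 call each in dendritic epidermal T cells, CD8 or NKT-like cells and NK cells. The same 1 gene was called higher in each of these classes with the replicate block, and in dendritic epidermal T cells by DESeq2. The deviations of same-numbered libraries correlated at -0.247 to 0.186 over genes. Same-numbered libraries also share a file letter, so the replicate block cannot be told apart from the split by letter. With the block 65 genes were called over all classes against 3 without it. Leaving out 1 library gave 0 to 6 members lower in monocytes, 0 to 22 in macrophages, 0 to 6 in osteoclast-like macrophages, 0 to 2 in dendritic cells and 0 to 1 in CD4 T cells, and 0 to 1 higher in dendritic epidermal T cells, CD8 or NKT-like cells and NK cells.

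Between classes, leaving out 1 library gave 0 to 2 members lower in macrophages, 0 to 3 lower in osteoclast-like macrophages, 3 to 5 higher and 4 to 13 lower in dendritic cells, 0 to 1 higher and 12 to 19 lower in IL-17 gamma delta T cells, 3 to 8 lower in CD4 T cells, 0 to 1 lower in CD8 or NKT-like cells, 2 to 5 higher and 2 to 4 lower in NK cells, and 0 to 1 higher and 5 to 6 lower in group 2 innate lymphoid cells. One more marker per gate gave 2 lower in macrophages, 11 higher in osteoclast-like macrophages, 11 lower in CD4 T cells and 2 lower in CD8 or NKT-like cells. With cells over 3000 genes kept, 4 were lower in osteoclast-like macrophages. Without the library block 1 was lower in osteoclast-like macrophages, 3 higher in dendritic cells, 0 higher in IL-17 gamma delta T cells, and 2 higher and 1 lower in NK cells. RLE size factors and DESeq2 each gave 0 higher in IL-17 gamma delta T cells. With no filter, 7 were higher and 2 lower in CD8 or NKT-like cells and 13 lower in group 2 innate lymphoid cells, and without the top Scrublet scores 2 were lower in CD8 or NKT-like cells. The cause of these changes was not tested. Over these alternatives the members called higher numbered 23 to 28 in neutrophils, 23 to 31 in monocytes and 28 to 36 in macrophages. Gene by gene, the 202 calls of a member in a class gave 2182 values under these alternatives, of which 1995 kept direction and call, 186 kept the direction alone and 1 turned: *Cmpk2* in osteoclast-like macrophages, at -0.08 (log2) with 1 more marker.

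The difference of the summed share (hucMSC-Exo minus Control, in percentage points) moved beyond the spread between libraries in 3 classes: to -0.015 in dendritic epidermal T cells with 1 more marker, to -0.021 in CD4 T cells with cells over 3000 genes kept, and in CD8 or NKT-like cells to -0.065 without the top Scrublet scores, -0.035 with 1 more marker and -0.039 without *Ifitm3* and *Bst2*. This last alternative, and the summed share with each library left out, were chosen after seeing the data. Dendritic cells, NK cells and group 2 innate lymphoid cells had under 10 cells in a library with 1 more marker and gave no value there, and no member could be tested between the groups in group 2 innate lymphoid cells. Depth limits the small classes: 3 UMIs correspond to 27.8 CPM in the neutrophils of Control 1.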

Other observations

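Plasmacytoid dendritic cells, too few to be tested with 4, 12, 10 and 16 cells, held the second highest summed share, at 0.464%, 0.546%, 0.438% and 0.548%. Control 1 was not the highest library there, but its exact 95% interval of 0.390% to 0.549% covered the values of the others. Without *Ifitm3* and *Bst2* the share was 0.115%, 0.0866%, 0.0421% and 0.0758%, with Control 1 highest and hucMSC-Exo 1 lowest. Mast cells, at 38 cells, had no UMI of any listed IFIT or OAS gene, and the summed level of the ISG15 system, from 16 UMIs of *Isg15* and 1 of *Herc6*, averaged 386 CPM over the libraries.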
